A study of Mus musculus with 31 samples.

Results

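The core circadian clock genes are the 10 genes Arntl (also called Bmal1), Clock, Per1, Per2, Per3, Cry1, Cry2, Nr1d1, Nr1d2 and Dbp, taken by name as the textbook transcription loop and its first output. They are 10 of 25497 genes measured in the mouse thalamus, and all 10 were among the 14886 genes that passed the filter on low counts. Bulk RNA-seq was made from the thalamus of adult offspring at postnatal day 90. The mothers had been reared in social isolation (SIR) or housed as controls, and the libraries were 7 SIR males, 8 SIR females and, as controls, 8 males and 8 females. All groups share the tissue, the age, the extraction kit and a stranded library kit for polyadenylated RNA. The labels used here give no strain, litter, hour of collection or batch, so each animal was counted as separate, and a p-value here covers the spread among the sampled animals, which may share litters. In bulk tissue, fewer cells of a type and less RNA per cell cannot be told apart.

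In the clock of nearly every mammalian cell, the proteins CLOCK and BMAL1 bind together to E-box sequences and switch on the period genes, the cryptochromes, Nr1d1, Nr1d2 and Dbp. The PER and CRY proteins return to the nucleus and repress CLOCK and BMAL1, which closes a daily loop. The nuclear receptors REV-ERB alpha and beta, encoded by Nr1d1 and Nr1d2, repress Arntl through ROR elements, and DBP activates genes that hold D-boxes. Transcripts of Arntl and of the repressed side therefore peak at different times of day in most tissues, and a single collection hour shows one phase of the cycle. The suprachiasmatic nucleus of the hypothalamus is the master pacemaker. Clocks outside it also respond to feeding, glucocorticoids and body temperature.

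The labels were checked first. Ddx3y, a Y-linked RNA helicase, held 31.5 to 50.2 CPM (counts-per-million of the scaled library) in the 15 libraries labelled male and 0 to 0.048 CPM in 15 libraries labelled female, whereas the library labelled SIR female 5 held 41.64 CPM and goes against its label. The calls of clock genes, of listed genes and of pairs are given below with and without it. Among the 14 pairs and the 31 relations with library measures that passed, the largest shift in r without it was 0.018. The thalamic markers Tcf7l2 (223 to 446 CPM), Slc17a6 (301 to 504) and Prkcd (796 to 1940) were present in each library, and the pacemaker markers Vip (0.0813 to 3.27) and Six6 (0 to 3.67) were low. Other genes of the list of 10 hypothalamic and suprachiasmatic markers were not low in every library, with Avp at 0.192 to 76 CPM, Oxt at 0.0961 to 194, Pmch at 1.29 to 153, Hcrt at 0.234 to 113, Trh at 3.03 to 86.5 and Lhx1 at 1.37 to 10.3. Nms and Prok2 did not pass the filter on low counts, and the sum of the list ran from 21.63 to 475.5 CPM. Library totals ran from 14.81 to 25.74 M (mega) estimated counts in 30 libraries and stood at 13 M in the other. The library numbers in the labels are 320 to 432 for SIR animals and 554 to 746 for controls, so anything that changed between those ranges cannot be told apart from housing. Of the 31, 8 have numbers apart from the bulk of their group (320 to 323 and 738 to 746).

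Start-site sequences are shown for the genes that the comparisons turn on, since most of these genes are wired together through short promoter motifs. They come from RefSeq on GRCm38.p6, an older build than the GRCm39 of the submitters' processing notes, and run from 250 bases before to 50 bases after a start. Of the 10 genes, 9 matched, with 13 starts, and Per2 is named only. Both strands were searched for the E-box CACGTG, the E'-box CACGTT, the D-box TTATGTAA and the ROR element, and capitals mark the matches. Among 32851 mouse promoters of the same length, 7.15% hold the E-box, 4.68% the E'-box, 0.94% the D-box and 0.38% the ROR element. The first 4 sequences belong to 4 of the 5 genes that passed in a comparison, and the last 2 to the pair Arntl and Per3, which moved in opposite directions.
Nr1d1 (chr11:98775328-98775627, - strand): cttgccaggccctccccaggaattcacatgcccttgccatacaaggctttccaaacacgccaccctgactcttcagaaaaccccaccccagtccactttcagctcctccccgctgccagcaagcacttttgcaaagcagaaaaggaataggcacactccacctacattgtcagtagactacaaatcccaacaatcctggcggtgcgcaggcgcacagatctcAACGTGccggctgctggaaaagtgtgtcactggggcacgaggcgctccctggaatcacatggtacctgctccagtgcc
Cry2 (chr2:92434020-92434319, - strand): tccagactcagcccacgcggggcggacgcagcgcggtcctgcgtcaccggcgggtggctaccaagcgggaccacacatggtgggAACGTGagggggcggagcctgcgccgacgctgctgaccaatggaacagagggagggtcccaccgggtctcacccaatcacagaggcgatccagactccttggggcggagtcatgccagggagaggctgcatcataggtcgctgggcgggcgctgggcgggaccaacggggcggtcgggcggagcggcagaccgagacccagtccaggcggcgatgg
Nr1d2 (chr14:18239057-18239356, - strand): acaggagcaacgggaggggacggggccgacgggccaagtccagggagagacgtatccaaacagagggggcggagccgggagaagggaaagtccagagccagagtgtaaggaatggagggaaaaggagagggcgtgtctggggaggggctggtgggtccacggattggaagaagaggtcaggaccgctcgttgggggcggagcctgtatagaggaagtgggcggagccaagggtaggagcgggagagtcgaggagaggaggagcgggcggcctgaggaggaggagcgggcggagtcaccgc
Dbp (chr7:45704997-45705296, + strand): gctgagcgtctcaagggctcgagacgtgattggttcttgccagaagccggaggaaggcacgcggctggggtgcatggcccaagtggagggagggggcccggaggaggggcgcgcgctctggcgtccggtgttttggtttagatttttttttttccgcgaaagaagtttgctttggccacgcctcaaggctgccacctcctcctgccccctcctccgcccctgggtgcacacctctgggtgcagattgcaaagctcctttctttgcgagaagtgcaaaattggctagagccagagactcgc
Arntl (chr7:113207261-113207560, + strand): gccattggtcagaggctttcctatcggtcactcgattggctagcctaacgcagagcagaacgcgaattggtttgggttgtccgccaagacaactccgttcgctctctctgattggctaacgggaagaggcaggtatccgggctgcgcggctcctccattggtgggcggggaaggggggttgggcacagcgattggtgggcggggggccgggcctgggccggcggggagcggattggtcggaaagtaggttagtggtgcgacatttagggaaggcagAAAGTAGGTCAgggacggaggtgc
Per3 (chr4:151044616-151044915, - strand): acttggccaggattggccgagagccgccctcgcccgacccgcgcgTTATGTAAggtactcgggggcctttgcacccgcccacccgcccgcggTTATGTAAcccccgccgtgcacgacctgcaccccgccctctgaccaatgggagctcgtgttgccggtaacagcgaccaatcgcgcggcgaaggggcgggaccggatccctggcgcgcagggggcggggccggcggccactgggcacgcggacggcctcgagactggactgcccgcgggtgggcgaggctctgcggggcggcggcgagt

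The Nr1d1 window holds an E'-box that starts 28 bases before the start site, and the Cry2 window one at 166 bases before it. The Per3 window holds 2 D-boxes, at 205 and 158 bases before the start. The second Arntl start is followed by a ROR element at 27 bases, the kind of element that REV-ERB and ROR receptors bind. No such letters are in the Nr1d2, Dbp and Clock windows. The first Per1 start has an E-box at 166 bases before it, and Cry1 has an E-box at 60 bases and an E'-box at 79 bases before its start.

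Levels of the 10 genes were compared per transcript length, as transcripts-per-million (TPM), over all 31 libraries. Dbp, the output factor, was the highest at 103 ± 29.1 TPM (SD, n = 31), followed by Nr1d1 at 75.4 ± 12.8, Nr1d2 at 63.9 ± 9.61 and Cry2 at 63.7 ± 6.37. A middle group held Per1 at 27 ± 5.94 TPM, Arntl at 24.3 ± 3.32, Clock at 20.4 ± 3.16 and Cry1 at 19.8 ± 2.14. Per3 at 6.16 ± 1.30 and Per2 at 6.07 ± 1.68 TPM were the lowest. The lowest library of any gene in the upper group, 47.1 TPM for Nr1d1, was above the highest of the middle group, 39.7 TPM for Per1. The lowest value of the middle group, 12.5 TPM for Clock, was above the highest of the low group, 11 TPM for Per2. Within each group the ranges of neighbouring genes overlapped. One transcript made up most of the signal of Nr1d1 (99.65% of its TPM on average), Cry1 (99.55%), Cry2 (99%) and Per2 (97.52%), while Clock was split over 3 transcripts of 57.48%, 27.04% and 12.22%.

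The genes also differed in how far they varied between animals. Dbp ran from 42.49 to 149.5 CPM, a ratio of 3.52 between the highest and the lowest library, and Per2, a PER repressor, had a ratio of 2.40. Cry2 varied least, with a ratio of 1.48 (104.9 to 155.7 CPM). The biological coefficient of variation within groups was 0.212 for Per2, 0.20 for Per1 and 0.20 for Dbp, 0.162 for Per3 and 0.071 for Cry2, against a median of 0.101 over all tested genes. Of genes at a like level, 98.1% varied less than Dbp, 98.0% less than Per1 and 44.2% less than Cry2.

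**Figure D1:**
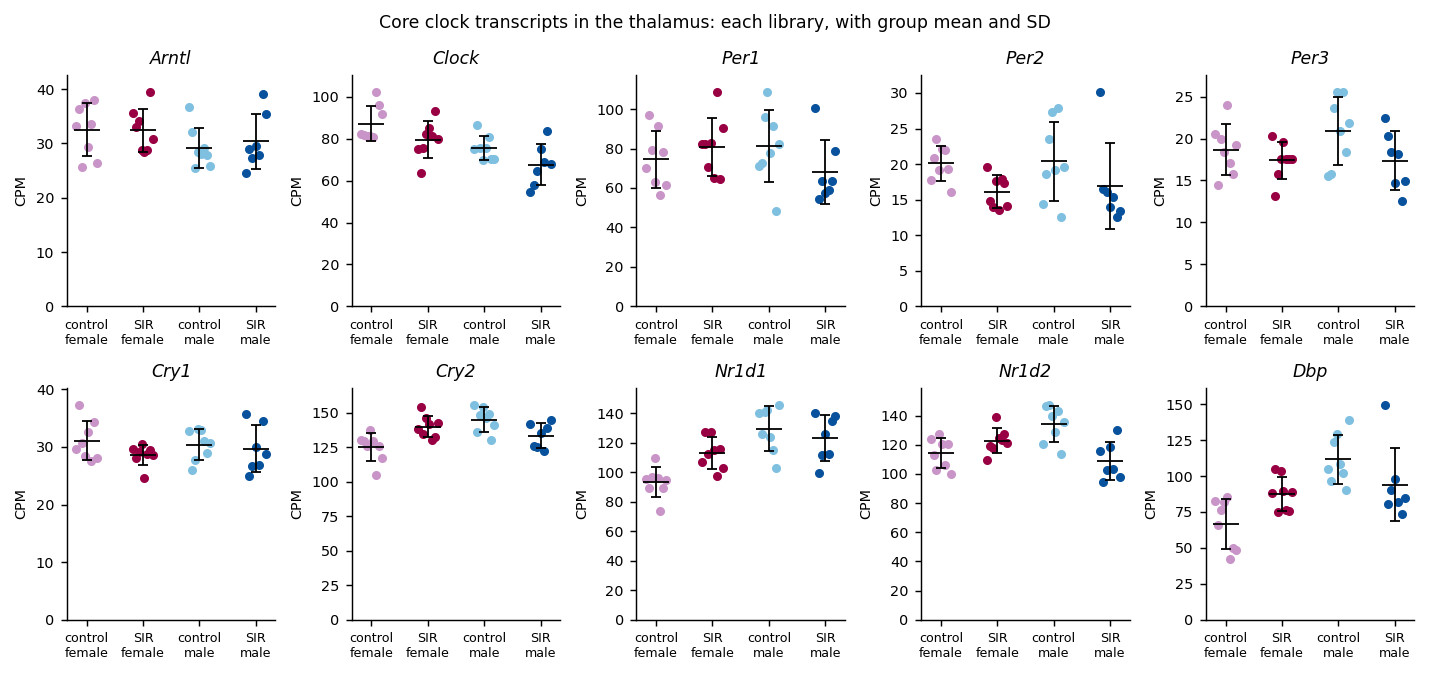
Level of each clock gene in each library (CPM, axes from 0), by group, with the group mean and SD as black bars. Dbp, Nr1d1 and Cry2 are lowest in control females, and the points of SIR male 1 lie above the rest of their group for Per2 (30.18 CPM) and Dbp (149.5 CPM).

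The first comparison asked whether the offspring of SIR mothers differed from controls over both sexes. None of the 10 genes passed, by edgeR's quasi-likelihood test with Benjamini-Hochberg adjustment over all genes, where 4.55% of the genes tested passed. DESeq2 and limma-trend called 0 as well. Of the 10, 4 had an unadjusted p under 0.05, as did 22.1% of all genes, each with a lower mean in SIR: Clock (log2 fold change -0.15 ± 0.053, SE), Per2 (-0.30 ± 0.11), Per3 (-0.19 ± 0.086) and Nr1d2 (-0.10 ± 0.047). The median of the 10 was -0.074 against -0.006 over all genes. Leaving out SIR male 1 brought Per2 past the threshold (-0.39, adjusted p = 0.0327 by edgeR's quasi-likelihood test), and leaving out SIR male 14 did so for Clock (-0.17, adjusted p = 0.0346).

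In males, Nr1d2, which encodes the repressor REV-ERB beta, fell with SIR, and it was the 1 gene of 10 that passed where 1.33% of all genes did. It held 94.53 to 130.2 CPM (median 103.1) in SIR males and 113.8 to 147.3 (median 137.6) in control males. The ranges overlapped, yet each of the 7 SIR males was below the control median and 4 were below all 8 controls. The log2 fold change was -0.30 ± 0.067 (adjusted p = 0.0206, edgeR's quasi-likelihood test).

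The other repressed-side genes had lower means in SIR males without passing. Log2 differences were -0.28 ± 0.16 for Per2, -0.27 ± 0.12 for Per3, -0.25 ± 0.15 for Per1 and -0.25 ± 0.15 for Dbp. They were smaller for Cry2 (-0.12 ± 0.051), Nr1d1 (-0.073 ± 0.081) and Cry1 (-0.036 ± 0.073). All 8 estimates had the same sign, with a median of -0.25 against -0.001 over all genes. Arntl, the activator, stood at 0.058 ± 0.099 and its partner Clock at -0.16 ± 0.077.

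The Nr1d2 difference in males was sensitive to single libraries and to trends of the libraries. It lost its call without any 1 of SIR male 6 or 15 or control male 19, 21, 22 or 25 (adjusted p 0.0506 to 0.0664 by edgeR's quasi-likelihood test). It also lost it with each library's trend with transcript length (-0.22, adjusted p = 0.766) or GC content (-0.25, adjusted p = 0.113) or the oligodendrocyte score (-0.33, adjusted p = 0.146) as a covariate. Without a covariate the estimate was -0.30, so with the oligodendrocyte score it was no smaller. The share of all genes that passed in these covariate fits is not reported here. Without the 8 libraries numbered apart, 4 genes passed in males by edgeR's quasi-likelihood test, namely Per2 (-0.58, adjusted p = 0.0185), Dbp (-0.38, 0.0207), Nr1d2 (-0.35, 0.0114) and Cry2 (-0.17, 0.0389). The share of all genes that passed in that fit is not reported here, and the 1.33% given above is for all 31 libraries. One of the libraries left out in that fit is SIR male 1. Its Per2 of 30.18 CPM compares with 12.58 to 16.45 in the other 6 SIR males, and its Dbp of 149.5 with 73.36 to 98.1.

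In females, Cry2, a cryptochrome repressor, and Nr1d1, which encodes REV-ERB alpha, rose with SIR, 2 of 10 genes where 4.62% of all genes passed. Nr1d1 held 97.58 to 127.7 CPM (median 113.7) in SIR females and 73.88 to 110.0 (median 95.07) in control females. Cry2 held 130.5 to 154.5 CPM (median 139.8) against 104.9 to 137.7 (median 127.6). For both genes each of the 8 SIR females lay above the control median and 5 lay above all 8 controls. The log2 fold change by edgeR's quasi-likelihood test was 0.28 ± 0.078 for Nr1d1 (adjusted p = 0.0347) and 0.16 ± 0.049 for Cry2 (adjusted p = 0.0476).

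Dbp had the largest estimate in females, 0.40 ± 0.14 (adjusted p = 0.116, edgeR's quasi-likelihood test), and did not pass. Its levels were 75.19 to 104.6 CPM (median 88.57) in SIR females and 42.49 to 85.2 (median 71.05) in control females. Of the control females, the 3 numbered 744 to 746 in the labels, held 42.49, 48.8 and 49.92 CPM of Dbp, and the other 5 held 65.99 to 85.2. Per2 stood at -0.32 ± 0.16 (adjusted p = 0.25), and all 8 SIR females were below the control median.

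Without the 8 libraries numbered apart, which include SIR females 2 and 3 as well as those 3 control females (29 to 31), no clock gene passed in females by edgeR's quasi-likelihood test: Nr1d1 stood at 0.20 (adjusted p = 0.352), Cry2 at 0.079 (0.568) and Dbp at 0.12 (0.703). Without the library labelled SIR female 5, Nr1d1 kept its call (0.28, adjusted p = 0.0493) and Cry2 lost it (0.17, 0.0541). Leaving out 1 library at a time, Cry2 was called in 14 of 31 fits and Nr1d1 in 24 of 31. Cry2 was lost by leaving out any one of SIR female 2, 3, 5, 7, 9 or 12, SIR male 8, control female 17, 20, 26, 29, 30 or 31, or control male 21, 23, 25 or 28 (adjusted p up to 0.12, without SIR female 3). Nr1d1 was lost without any 1 of SIR female 3, 7 or 9 or control female 18, 29, 30 or 31 (adjusted p 0.051 to 0.0861). Oligodendrocyte markers also differed: their sum of 6 genes ran from 7317 to 10330 CPM in SIR females and from 9745 to 11790 in control females, and with that score as a covariate Nr1d1 stood at 0.24 (adjusted p = 0.25) and Cry2 at 0.12 (adjusted p = 0.35) by edgeR's quasi-likelihood test.

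Midbrain markers moved with the female comparison too. Of the 5 on the list, 3 fell in SIR females by edgeR's quasi-likelihood test, with and without the library labelled SIR female 5: Slc6a3 (0.176 to 0.847 CPM against 0.293 to 43.12 in control females), Pax7 (0 to 0.089 against 0.357 to 1.60) and Foxa1 (0 to 0.484 against 0.233 to 5.042). The median log2 fold change of the 5 was -2.97, against -0.011 over all genes, and their sum ran from 12.51 to 35.76 CPM in SIR females and from 18.68 to 94.65 in control females. Over the 31 libraries the midbrain score was lower where Cry2 (r = -0.64, rho = -0.458, adjusted permutation p = 0.00233) and Nr1d1 (r = -0.518, rho = -0.424, adjusted permutation p = 0.0209) were higher. Centred on group means the relations were -0.648 and -0.55, without the 2 libraries farthest from the median they were -0.382 and -0.304, and within the number ranges 385 to 432 and 554 to 628 they were -0.58 and -0.475 for Cry2 and -0.326 and -0.412 for Nr1d1. A region component was taken as the first component of 5 region scores, the thalamic score not among them. It held 35% of their variance. With this component as a covariate, Nr1d1 kept its call (0.30, adjusted p = 0.0319, edgeR's quasi-likelihood test) and Cry2 stood at 0.16 (adjusted p = 0.0586). The part of the midbrain markers alone was not tested.

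**Figure D2:**
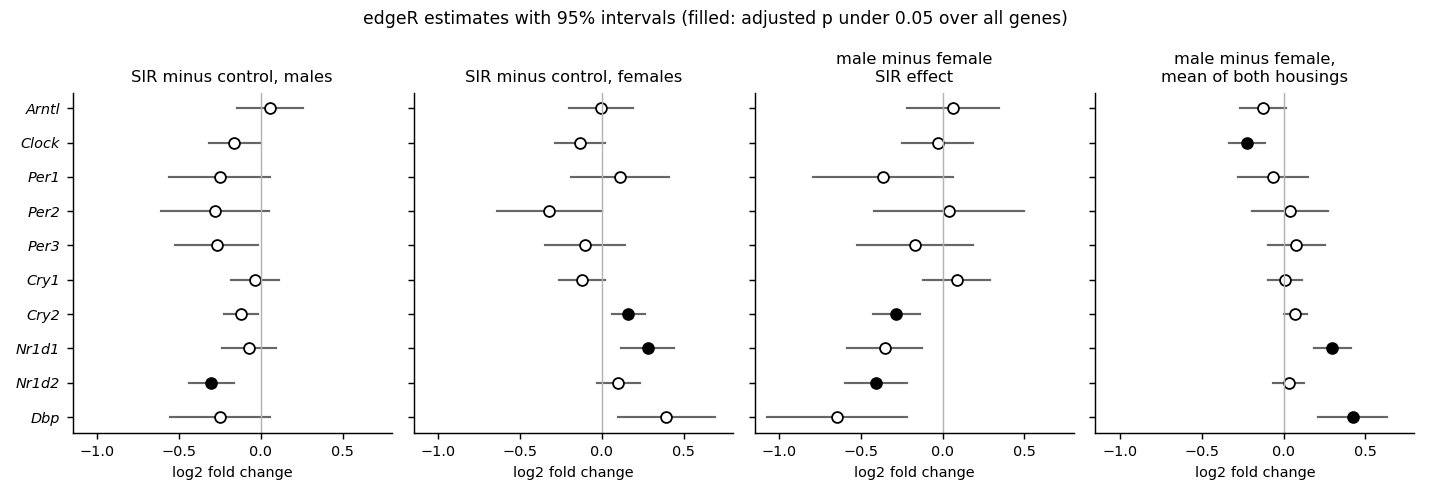
Log2 fold change of each clock gene with its 95% interval, for SIR minus control in males and in females, for the difference between those effects and for males minus females (filled points have an adjusted p under 0.05 by edgeR's quasi-likelihood test). Nr1d2 lies to the left in males, and Cry2 and Nr1d1 lie to the right in females.

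Whether SIR acted on the clock genes alike in males and females was tested directly, as the male effect minus the female effect. Cry2 and Nr1d2 passed, 2 of 10 genes where 2.83% of all genes did, with the male effect the lower in both. The difference was -0.28 ± 0.070 for Cry2 (adjusted p = 0.0194) and -0.41 ± 0.093 for Nr1d2 (adjusted p = 0.0119) by edgeR's quasi-likelihood test. In Cry2 all 7 SIR males were below the control male median and all 8 SIR females above the control female median. In Nr1d2 the counts were 7 of 7 below and 7 of 8 above.

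Dbp (-0.64 ± 0.21, adjusted p = 0.0935) and Nr1d1 (-0.35 ± 0.11, adjusted p = 0.0837) had estimates of the same sign and did not pass edgeR's quasi-likelihood test. Dbp passed without SIR male 1 (-0.79, adjusted p = 0.0179), without the 8 libraries numbered apart (-0.50, adjusted p = 0.0371) and with the length slope (-0.81, adjusted p = 0.0159) or GC slope (-0.72, adjusted p = 0.0175) as a covariate, and Nr1d1 without control female 24 (adjusted p = 0.0454) or control male 27 (0.0315). Of the repressed-side genes, 6 of 8 had a negative difference, with a median of -0.32 against 0.004 over all genes, and Per2 (0.040 ± 0.22) and Cry1 (0.085 ± 0.10) did not. Arntl stood at 0.063 ± 0.14.

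The calls of Cry2 and Nr1d2 held in each of the 31 fits that left out 1 library, the one without the library labelled SIR female 5 included (adjusted p 0.0187 and 0.0123). They held without the 8 libraries numbered apart (adjusted p 0.0421 and 0.0215, edgeR's quasi-likelihood test). Oligodendrocyte markers moved with the same contrast in the opposite direction: all 6 passed, with a median log2 difference of 0.42, and 5 passed without the library labelled SIR female 5. Their summed level was 7981 to 10280 CPM in SIR males and 7118 to 9950 in control males. With the oligodendrocyte score as a covariate Cry2 stood at -0.21 (adjusted p = 0.529) and Nr1d2 at -0.47 (adjusted p = 0.229), and 0 of all genes tested passed for this contrast.

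Males and females were then compared over both housings. Nr1d1 and Dbp were higher and Clock lower in males, 3 of 10 genes where 10.1% of all genes passed. Nr1d1 held 99.83 to 145.8 CPM (median 126.3) in males and 73.88 to 127.7 (median 100.3) in females. The log2 difference was 0.30 ± 0.056 (adjusted p = 0.0013, edgeR's quasi-likelihood test), and 14 of 15 males were above the female median.

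Dbp stood at 0.42 ± 0.10 (adjusted p = 0.0112, edgeR's quasi-likelihood test). The separation was in the controls: the 8 control males held 90.36 to 139.1 CPM (median 106.5) and the 8 control females 42.49 to 85.2 (median 71.05), so that the ranges did not overlap. Ranges that do not overlap between these 2 groups were found for 0.92% of the genes tested. In SIR animals the ranges overlapped, with 73.36 to 149.5 CPM (median 84.88) in males and 75.19 to 104.6 (median 88.57) in females.

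Clock held 54.83 to 86.78 CPM (median 70.57) in males and 63.75 to 102.5 (median 81.66) in females, a log2 difference of -0.22 ± 0.053 (adjusted p = 0.00878, edgeR's quasi-likelihood test). Clock has the longest transcripts of the 10, longer than those of 98.0% of the genes tested, and a GC content of 40.9% against a median of 49.7%. With each library's length trend as a covariate the Clock difference was -0.066 (adjusted p = 0.638), and with its GC trend -0.11 (adjusted p = 0.106). It was -0.16 without the 8 libraries numbered apart (adjusted p = 0.0578) and -0.17 with the oligodendrocyte score (adjusted p = 0.14). The same covariates took Dbp, of 61.6% GC, to 0.21 (adjusted p = 0.507) and 0.27 (adjusted p = 0.152), and the oligodendrocyte score to 0.38 (adjusted p = 0.0981). Nr1d1 passed in all 31 fits without 1 library and under all 12 other alternatives (0.27 to 0.32). Without the library labelled SIR female 5, all 3 genes passed.

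Of 8 temperature-responsive genes, 2 were higher and 1 lower in males, with a median log2 difference of 0.072 against -0.005 over all genes. Cirbp and Rbm3, which encode cold-inducible RNA-binding proteins, were higher in males by 0.67 ± 0.10 and 0.68 ± 0.086 (adjusted p = 0.000132 and 1.6e-05, edgeR's quasi-likelihood test). Cirbp held 38.86 to 62.24 CPM in control males and 18.73 to 27.55 in control females. In SIR animals its ranges overlapped, with 20.55 to 61.88 CPM in males and 26.51 to 41.33 in females. Hspa5, a chaperone of the endoplasmic reticulum, was lower in males by a log2 difference of -0.16 ± 0.051 (adjusted p = 0.0395, edgeR's quasi-likelihood test). Of 8 glucocorticoid targets 1 was higher and 1 lower, with a median of -0.069. Fkbp5, a glucocorticoid receptor target, was higher in males by 0.31 ± 0.085 (adjusted p = 0.0193, edgeR's quasi-likelihood test). It held 25.92 to 48.39 CPM in control males and 18.65 to 30.81 in control females, and 25.19 to 39.11 in SIR males and 22.65 to 32.35 in SIR females. Pdk4, a kinase that inhibits pyruvate dehydrogenase, was lower (-0.27 ± 0.081, adjusted p = 0.032, edgeR's quasi-likelihood test). These 5 genes passed without the library labelled SIR female 5 as well. Fos, an activity gene, did not pass in any comparison. Of the 9 immediate early genes tested, 1 was lower in males without the library labelled SIR female 5, with a median of -0.148. The share of all genes that passed in that fit is not reported here. Arc, on that list, held 24.94 to 34.77 CPM in control males and 37.05 to 50.37 in control females. In SIR animals it held 25 to 41.66 CPM in males and 25.5 to 60.15 in females.

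Next, the relation of the activating side (Arntl and Clock) to the repressed side (the other 8 genes) was examined. The genes of a side need not peak at the same hour, so the scores do not measure collection time. Clock, part of the activating score, also went with the library's GC slope (r = -0.869). Each side was scored as the mean of log2 CPM centred per gene. Over 31 libraries, Pearson's r was -0.427 and Spearman's rho -0.26, given as a description. Without the 2 libraries farthest from the median of the activating side r was -0.308, and with each group centred on its mean it was -0.414. With Arntl alone as the activating side r was -0.373.

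The relation was uneven between sets of libraries. It was -0.602 in the 16 control libraries and -0.348 in the 15 SIR libraries, where rho was 0.057. Among the 12 libraries numbered 385 to 432, all SIR, r was 0.299, and among the 11 numbered 554 to 628, all controls, it was -0.744. Leaving out 1 library at a time gave -0.51 to -0.303, with the weakest value without SIR male 1, and leaving out the 8 libraries numbered apart gave -0.163. Without the library labelled SIR female 5 it was -0.423. The 2 number ranges thus gave opposite signs, and the part of collection time was not tested.

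The difference between the sides (repressed minus activating, log2) ordered the libraries from -0.58 in control female 29 to 0.768 in SIR male 1. Among males the group mean was 0.211 ± 0.245 (SD, n = 8) for controls and 0.071 ± 0.341 (n = 7) for SIR. Among females it was -0.205 ± 0.234 (n = 8) for controls and -0.068 ± 0.152 (n = 8) for SIR. The groups overlapped. SIR females spread least, from -0.37 to 0.107, and SIR males most, from -0.342 to 0.768.

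**Figure D3:**
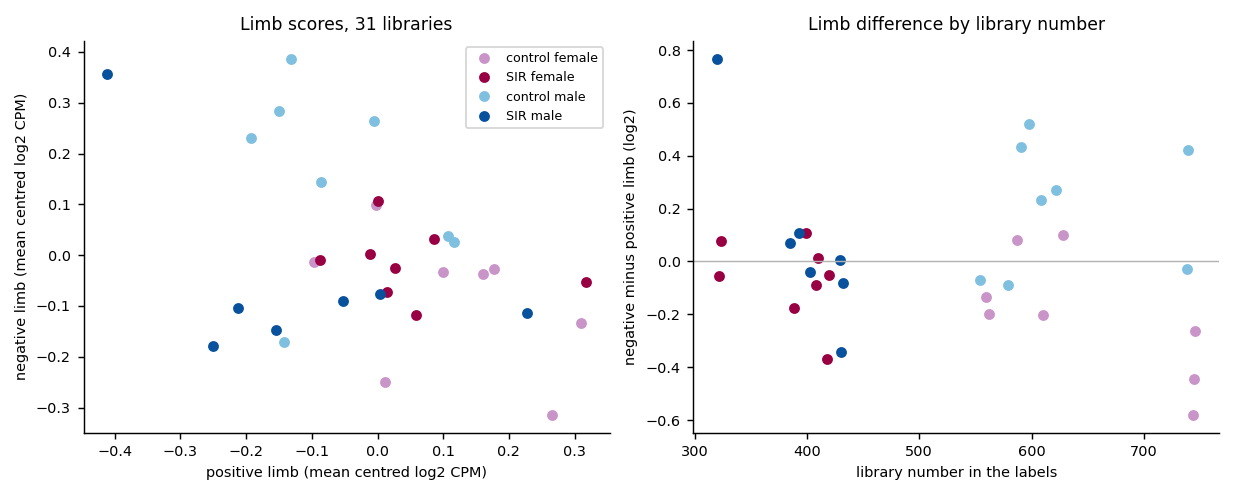
Left, the repressed-side score against the activating-side score for each library (mean centred log2 CPM). Right, the difference between the sides by library number in the labels, where SIR male 1 (number 320) lies highest at 0.768 and control female 29 (number 744) lowest at -0.58.

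Single pairs of clock genes were examined next. Of the 45 pairs, 14 passed a permutation test of Pearson's r with adjustment over the 45, 10 of them positive and 4 negative. The strongest joined Nr1d1 with Dbp (r = 0.817, rho = 0.754), Nr1d1 with Cry2 (0.806, rho 0.774) and Cry2 with Dbp (0.782, rho 0.733), each with a permutation p of 1e-05, the smallest that 100000 permutations can give, and an adjusted p of 0.00015. Of all genes tested, Dbp had the highest correlation with Nr1d1 on values not centred on group means. With centring, among genes of at least 5 CPM, Cry2 was first (0.767) and Dbp was at rank 20 (0.627). Without the 2 libraries farthest from the median these were 0.740, 0.728 and 0.648.

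The period genes formed another set. Per2 went with Per3 (r = 0.674, rho = 0.615, permutation p = 2e-05, adjusted p = 0.000225) and with Per1 (r = 0.60, rho = 0.583, permutation p = 0.00028, adjusted p = 0.0018), while Per1 with Per3 reached 0.327 (adjusted p = 0.155 by permutation). Nr1d1 with Per2 stood at -0.039 and with Per3 at 0.042.

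The 4 negative pairs each held Arntl or Clock. Arntl fell as Per3 rose (r = -0.618, rho = -0.606, permutation p = 0.00023, adjusted p = 0.00172), and this pair held in both number ranges (-0.636 and -0.704). After centring, Arntl and Per3 also went opposite ways with the score of the thalamic markers (0.772 and -0.525). The part of tissue content in this pair was not tested. Arntl with Dbp stood at -0.432 (rho -0.469, adjusted p = 0.0471 by permutation), Clock with Dbp at -0.658 (rho -0.559, adjusted p = 0.00099) and Clock with Nr1d1 at -0.496 (rho -0.435, adjusted p = 0.0209). Arntl with its partner Clock reached 0.406 (adjusted p = 0.0626 by permutation). Clock and Dbp went with the library's GC slope in opposite directions (r = -0.869 and 0.557). With the length slope or the GC slope taken out of each gene, 2 negative pairs passed.

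With each group centred on its mean 14 pairs passed again, 10 of them the same pairs. The 4 lost were Arntl with Dbp, Clock with Nr1d1, Cry2 with Nr1d2 and Nr1d2 with Dbp, and the 4 gained were Dbp with each period gene and Cry1 with Cry2. Clock with Nr1d1 went from -0.496 to -0.166. Of the 14 pairs, 13 had the same sign in both number ranges, Clock with Nr1d1 being the exception (0.188 and -0.637). In the 15 SIR libraries alone 0 pairs passed the permutation test after adjustment, and in the 16 controls 11 did. Without the library labelled SIR female 5, 13 pairs passed, and without control male 22 or control female 29, 9 did.

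**Figure D4:**
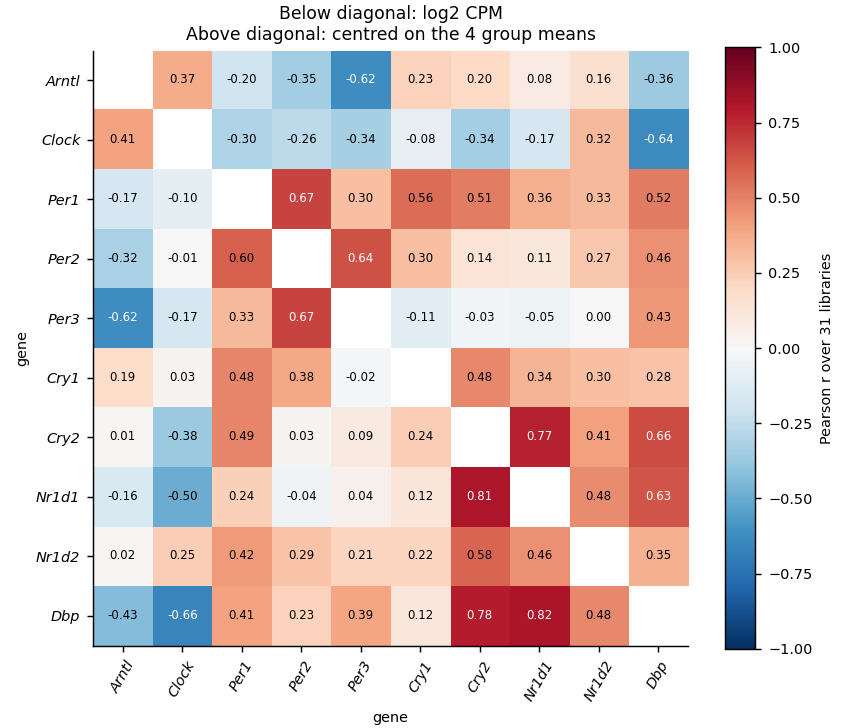
Pearson's r between each pair of clock genes over 31 libraries, on log2 CPM below the diagonal and after centring on the group means above it. Cry2, Nr1d1 and Dbp form one positive block (0.78 to 0.82 below the diagonal), Per2 joins Per1 and Per3 (0.60 and 0.67), and Arntl with Per3 is negative on both sides of the diagonal (-0.62).

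The genes were then set against 21 measures of each library, 210 relations in all, of which 31 passed a permutation test after adjustment over the 210 (17 positive and 14 negative). Clock went with the trends of the libraries: its r with the library's GC slope was -0.869 (rho -0.837) and with its length slope 0.836 (rho 0.785), both with an adjusted permutation p of 0.000525. Within the number ranges 385 to 432 and 554 to 628 the GC relation was -0.929 and -0.455. The length relation was 0.872 and 0.077, so it did not hold within the control range. Dbp went the other way, with r of 0.557 for GC and -0.501 for length (adjusted permutation p = 0.0104 and 0.0276). After centring these were 0.575 and -0.497. Within the ranges the Dbp relations were -0.013 and -0.116 for GC, and 0.047 and 0.415 for length. Arntl went with the score of the thalamic markers (r = 0.634, rho = 0.667, adjusted permutation p = 0.0021), and this was 0.633 and 0.623 within those ranges. Rora, a ROR receptor gene, is 1 of the 9 markers in that score and is also on the list of other clock genes below. Cry2 (r = 0.579, adjusted permutation p = 0.00945) and Nr1d2 (r = 0.529, adjusted permutation p = 0.0172) went with the thalamic score too. Arntl went against the score of the hypothalamic and suprachiasmatic markers (r = -0.57, rho = -0.616, adjusted permutation p = 0.0104), with -0.541 after centring and -0.744 and -0.585 within the ranges. Per3 with the thalamic score stood at -0.365 (adjusted permutation p = 0.169), and at -0.525 after centring (0.0264). With the hypothalamic score Per3 stood at 0.413 (adjusted permutation p = 0.102), and at 0.473 after centring (0.0565).

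Dbp went with Cirbp (r = 0.830, rho = 0.773, adjusted permutation p = 0.000525). The relation was 0.641 with groups centred, and 0.524 and 0.948 within the number ranges. With the score of the 8 temperature-responsive genes, Dbp stood at 0.406 and did not pass (adjusted permutation p = 0.108). Per1 went with Fkbp5 (r = 0.544, rho = 0.513, adjusted permutation p = 0.0139), with 0.67 after centring and 0.482 and 0.64 within ranges. Fkbp5 also went with Dbp (r = 0.587), Nr1d1 (0.561) and Cry2 (0.52), with adjusted permutation p of 0.00896, 0.0104 and 0.0209. After centring these were 0.283, 0.229 and 0.278 and did not pass. With the score of the 8 glucocorticoid targets, Fkbp5 among them, Dbp, Nr1d1 and Cry2 stood at -0.216, -0.108 and -0.076. Those relations did not pass, whereas Per1 with that score did (r = 0.517, adjusted permutation p = 0.0198). Per2 with Fkbp5 passed only after centring (0.576, adjusted permutation p = 0.0133). Per3 went against the score of endothelial markers (r = -0.626, rho = -0.559, adjusted permutation p = 0.00305), with -0.634 and -0.648 within ranges. Per2 did so too (r = -0.575, rho = -0.505, adjusted permutation p = 0.00896), with -0.327 and -0.757 within ranges. In males alone r was -0.809 for Per3 and -0.792 for Per2. In females alone it was -0.184 and 0.052, so the endothelial relations did not hold there.

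The oligodendrocyte score was lower where Cry2 (r = -0.613, rho = -0.614), Dbp (-0.592, rho -0.618) and Nr1d1 (-0.578, rho -0.624) were higher, with adjusted permutation p of 0.00367, 0.00549 and 0.00988. With groups centred these were -0.212, -0.127 and -0.105 and did not pass. In the range 385 to 432 they were -0.069, -0.221 and 0.136, and in 554 to 628 they were -0.787, -0.788 and -0.854. The relation did not hold within the SIR range.

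**Figure D5:**
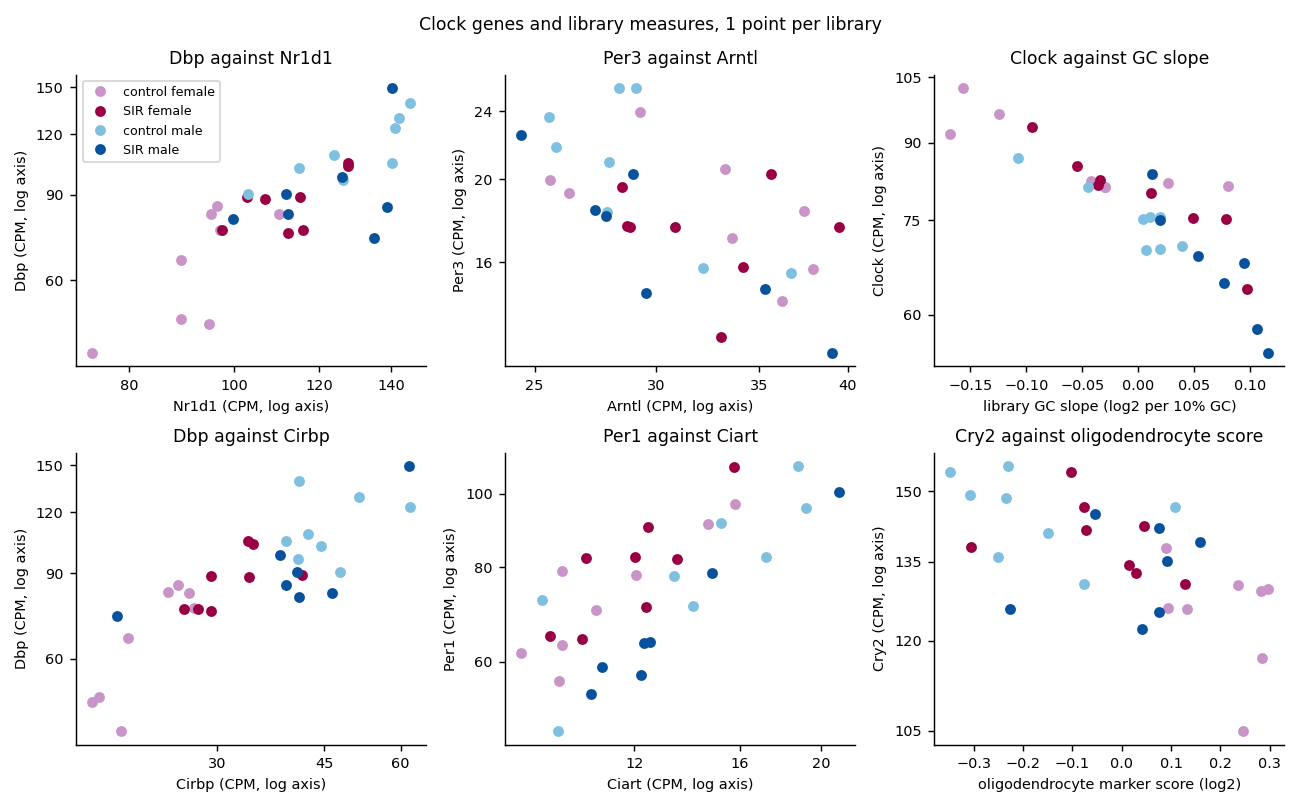
Pairs of measures with 1 point for each library, coloured by group (CPM on log axes, library slopes and marker scores on linear axes). Dbp rises with Nr1d1 (r = 0.817) and Cirbp (0.830), Per3 falls with Arntl (-0.618) and Clock falls with the GC slope (-0.869).

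The genes most like 5 of the members were listed by group-centred r over the 31 libraries among 11001 other genes of at least 5 CPM. Per1 was closest to Ciart, which encodes the clock repressor CHRONO (0.871), then Herpud1 (0.735), Safb (0.735), Bcl2l1 (0.73) and Lrrc8a (0.725). Arntl was closest to Epha4 (0.879), Akap2 (0.869), Lrtm2 (0.861) and Galnt9 (0.859). Clock was closest to Crk (0.915), Plaa (0.891), Api5 (0.89), Usp15 (0.879) and Ccdc186 (0.873). Nr1d1 was closest to Slc25a44 (0.702), Ap2a1 (0.691), Ncdn (0.682), Pitpnm2 (0.674) and Pcsk2 (0.671), and Dbp to Map2k2 (0.728), Col11a2 (0.719), Chrac1 (0.712) and Por (0.701). Of the genes named here, Ciart is the one on the list of other clock genes.

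That list held 25 further genes of the clock, all of them tested. Over both sexes 2 rose with SIR and 0 fell where 4.55% of all genes passed, and without the library labelled SIR female 5 only Prokr2 of the pair Prokr2 and Timeless did. In males 0 passed by edgeR's quasi-likelihood test (1.33% of all genes), and 2 of the 25 had an unadjusted p under 0.05, as did 17.6% of all genes. In females 3 rose (4.62% of all genes passed), for the difference between the sexes' effects 1 passed (2.83%) and between the sexes 1 (10.1%), with the same counts without the library labelled SIR female 5. Prokr2, a receptor of the pacemaker peptide prokineticin 2, held 4.86 to 12.43 CPM in SIR females and 1.44 to 4.182 in control females, without overlap, as for 0.652% of all genes tested, with a log2 fold change of 1.62 ± 0.25 (adjusted p = 0.000706, edgeR's quasi-likelihood test). Its male effect was lower by 1.69 ± 0.36 (adjusted p = 0.00685). Timeless, whose protein acts mainly at replication forks in mammals, was also without overlap, with 4.975 to 7.451 CPM against 3.681 to 4.876 (0.47 ± 0.10, adjusted p = 0.00923). Without the library labelled SIR female 5 the female estimates were 1.66 for Prokr2 (adjusted p = 7e-04, edgeR's quasi-likelihood test) and 0.47 for Timeless (adjusted p = 0.014). In that fit 2 of 9 thalamic, 1 of 5 habenular and 1 of 5 hippocampal and cortical markers rose in SIR females, and 0 of these fell. There, 3 of 5 midbrain and 2 of 6 oligodendrocyte markers fell, and 0 of those rose. The share of all genes that passed in that fit is not reported here, and the 4.62% is for all 31 libraries. The thalamic marker Calb2 held 215.1 to 292.1 CPM in SIR females and 110.9 to 193 in control females. The part of tissue content in these differences was not tested.

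Bhlhe40, which encodes the E-box repressor DEC1, rose in SIR females by 0.28 ± 0.077 (adjusted p = 0.0321, edgeR's quasi-likelihood test), with 102.5 to 151.9 CPM against 88.64 to 127.1. Nono, a partner of PER proteins, was higher in males by 0.080 ± 0.025 (adjusted p = 0.0364). Both passed without the library labelled SIR female 5 (adjusted p = 0.0413 and 0.0453). Npas2, the paralog of Clock, held 19.08 to 34.31 CPM and did not pass in any comparison. Neither did the D-box factors Tef (219.8 to 295.4), Hlf (296.8 to 507.9) and Nfil3 (8.079 to 16.6), nor Ciart (8.803 to 21.03), Bhlhe41 (48.0 to 74.12), Rorb (56.96 to 112.6) and Usp2 (38.65 to 72.52). The median log2 fold change of the 25 was -0.072 in males and 0.021 in females.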

How the data were processed

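Polyadenylated thalamic RNA of 31 mice was sequenced. FastQC, kallisto and the build GRCm39 are named in the submitters' processing notes, with neither versions nor strand settings, so overlapping and antisense genes are uncertain. For each of 105878 transcripts the deposited tables give, per the file headers, the effective length in bases, the estimated count and the TPM value. Transcripts matched GENCODE M21 names (99.12%), and 0.689% to 0.755% of counts were unmatched. Per gene, the estimated counts of its transcripts were added and then rounded.

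Genes were filtered by filterByExpr, scaled by TMM and tested with edgeR 4.0.16 in R 4.3.3 (robust quasi-likelihood, 1 mean for each of the 4 groups, Benjamini-Hochberg over 14886 genes, threshold 0.05). CPM uses TMM-scaled totals, and correlations use log2 CPM with a prior count of 2 and 100000 permutations. Alternatives used DESeq2 1.42.0 and limma 3.58.1. Scripts were tested on simulated data. All 105 pairs of libraries within a group differed beyond sampling noise (chi-square per degree of freedom 5.53 to 57.88). The 10 clock genes are named throughout, and of other clock genes those that passed in a comparison and 8 chosen ones. Likeness was listed for 5 members with up to 5 genes each, some of which are not reported here. The members and lists were chosen with earlier results of these data known.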

Additional observations from a re-analysis of the deposited data

Results flagged for a closer look

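Each clock gene was examined in each of the 4 groups for a library far from the others, 40 sets in all, and chance marks about 1 in 20 such sets. In SIR male 1, Per2 stood at 30.18 CPM, where the next SIR male held 16.45, and Dbp at 149.46 CPM, where the next held 98.1. In SIR female 9, Cry1 was the lowest of its group at 24.66 CPM, where the next held 28.13. The effect of SIR differed between the sexes, by the interaction term of edgeR's quasi-likelihood test, for Cry2 (-0.284, adjusted p = 0.0194) and Nr1d2 (-0.405, adjusted p = 0.0119).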

How the results depend on the processing

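No paired analysis was possible because the groups share no replicate numbers. The number of clock genes called in males went from 1 to 0 with the length slope, GC slope or oligodendrocyte score as a covariate and to 4 without the 8 libraries numbered apart. In females it went from 2 to 1 with no filter or the region component and to 0 with limma-trend on log2(TPM + 1), those 3 covariates, or without the 8 libraries numbered apart or the 2 shallowest. With the oligodendrocyte score 0 were called for the difference of effects, and 1 between the sexes, as with the length and GC slopes. Leaving out 1 library gave 0 to 1 over both sexes, 0 to 1 in males, 0 to 2 in females, and 9 to 16 correlated pairs. Pairs fell to 9 without the 8 libraries, to 0 in SIR libraries alone and to 5 in females alone. The correlation of the sides was -0.163 without the 8 libraries, -0.602 in controls, -0.269 in males, -0.27 with Arntl and Npas2, 0.299 in numbers 385 to 432 and -0.744 in 554 to 628. GC, oligodendrocyte, shallow-library and number-range alternatives, and the fits of listed genes without the library labelled SIR female 5, were chosen after seeing the data. The cause of these changes was not tested.

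Estimates that changed sign were all of genes that did not pass. With the length slope they were, for SIR minus control, Clock 0.029 and Dbp -0.173 over both sexes, Clock 0.052 in males, and Arntl 0.039 and Clock 0.007 in females. For the difference of effects they were Clock 0.045 and Per2 -0.028, and between the sexes Per2 -0.045 and Cry1 -0.023. With the GC slope they were Cry2 -0.02 and Dbp -0.093 over both sexes, Arntl 0.029 in females, Clock 0.005 for the difference of effects, and Per2 -0.015 and Cry1 -0.021 between the sexes. Without the 8 libraries they were Cry2 -0.044 and Dbp -0.134 over both sexes, Clock 0.026 in females, Per2 -0.186 for the difference of effects, and Per2 -0.012 and Cry1 -0.024 between the sexes. With the region component they were Arntl -0.001 over both sexes, and Cry1 -0.039 and Nr1d2 -0.013 between the sexes. With the oligodendrocyte score they were Per3 0.048 and Cry1 -0.06 for the difference of effects and Per2 -0.072 between the sexes. Arntl in females was 0.001 with upper quartile scaling or no filter and 0.007 with limma-trend, and Cry1 between the sexes was -0.006 without the 2 shallowest libraries. Leaving out 1 library, Arntl ran from -0.004 to 0.056 over both sexes, -0.006 to 0.113 in males, -0.051 to 0.03 in females and -0.005 to 0.118 for the difference of effects. Clock ran from -0.086 to 0.017 and Per2 from -0.153 to 0.123 for the difference of effects, Cry1 from -0.077 to 0.007 in males and -0.011 to 0.03 between the sexes, and Per2 from -0.053 to 0.079 between the sexes.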
